A study of Mus musculus with 4 samples.

Results

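Imprinted genes are transcribed mainly from the copy inherited from 1 parent, and 10 of them that are known for roles in the brain were followed here in the lateral habenula (LHb), the part of the epithalamus through which the forebrain reaches midbrain monoamine neurons. The 10 were chosen by symbol, as Peg3, Ndn, Magel2, Snrpn, Meg3, Peg10, Grb10, Nnat, Impact and Zdbf2, and each matched 1 row among the 53465 gene rows of the count matrix. Libraries of polyadenylated RNA came from C57BL/6 mice that were group-housed (2 libraries) or socially isolated (2 libraries). The sources used here give no age, sex or length of isolation, nor whether a library held 1 animal or a pool. Every p-value thus rests on a spread between libraries whose source (animals, pools or repeats) is not stated. That spread went beyond counting noise in both groups (chi-square per degree of freedom 5.13 and 7.57). The question of the series is whether acute isolation changes this nucleus.

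Parental expression is set in the germ line by DNA methylation at imprinting control regions. Such a region acts on a cluster of genes, and a cluster can hold both paternally and maternally expressed ones. Some paternally expressed genes are named Peg and some maternally expressed ones Meg. Several of the genes are known from work on growth, feeding, maternal care and social behaviour, and loss of the paternal copies of Ndn, Magel2 and Snrpn accompanies Prader-Willi syndrome. Of the 10 members, 8 are paternally expressed, Meg3 is maternally expressed, and Grb10 is maternally expressed in most tissues but paternally expressed in neurons. The counts add up both parental copies, so the values below are total levels and say nothing about which copy was used.

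The tissue label was checked against markers first. The 8 lateral habenula markers, among them Gpr151 (352 to 426 CPM) and Pou4f1 (130 to 162 CPM), summed to 2098 and 1986 CPM in the group-housed and to 2138 and 1927 CPM in the isolated libraries, where CPM are counts scaled to the effective library size. Of these 8, 3 had a positive log2 fold change (Gpr151, Pou4f1 and Sstr2) and 5 a negative one, with a median of -0.064, and edgeR called 0. The 9 medial habenula markers summed to 1237 and 1135 CPM in the group-housed and to 1580 and 1595 CPM in the isolated libraries, and 2 of the 9, Chrnb3 and Slc5a7, were the only genes that edgeR called. All 10 thalamus markers were lower in the isolated mean. The 6 hippocampus markers summed to 416 and 423 CPM in the group-housed and to 469 and 508 CPM in the isolated libraries. Of these 6, 4 had a positive log2 fold change and 2 a negative one. The 7 choroid plexus markers summed to 43.2 and 146 CPM in the group-housed and to 65.2 and 77.0 CPM in the isolated libraries. The part of these differences in the members' values was not tested, nor was the share of neighbouring tissue measured. Total counts ranged from 20897605 to 26428152 per library, and the 10 members together took 0.653 to 0.733% of them.

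None of the 10 genes passed the test for a change with isolation. By the quasi-likelihood test of edgeR, adjusted after Benjamini-Hochberg over all 17528 tested genes, 0 of the 10 passed as higher or lower, beside 0.0114% of all tested genes, and the adjusted p ranged from 0.979 for Grb10 to 0.9998. At an unadjusted p below 0.05, 0 of the 10 members passed, beside 5.09% of all tested genes, and DESeq2 and limma-voom called 0 members as well, beside 0.283% and 0.0114% of the genes they tested. The log2 fold changes (isolated over group-housed) ran from -0.098 to 0.14 with a median of 0.056, beside a median of 0.0033 over all tested genes, and 7 of the 10 were positive. Omission of group-housed replicate 1, group-housed replicate 2 or isolated replicate 1 left 5 of 10 positive each time, with medians of 0.017, 0.018 and -0.013. Omission of isolated replicate 2 left 8, with a median of 0.047. All 10 passed the filter on low counts.

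For 2 members, Grb10 and Nnat, the 2 isolated libraries were the highest of the 4, beside 17.4% of all tested genes. For 1 member, Snrpn, they were the lowest, beside 16.3%. These shares are near those of all genes. In bulk tissue, fewer cells of a type and less RNA per cell cannot be told apart, and this holds for each value given here.

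**Figure D1:**
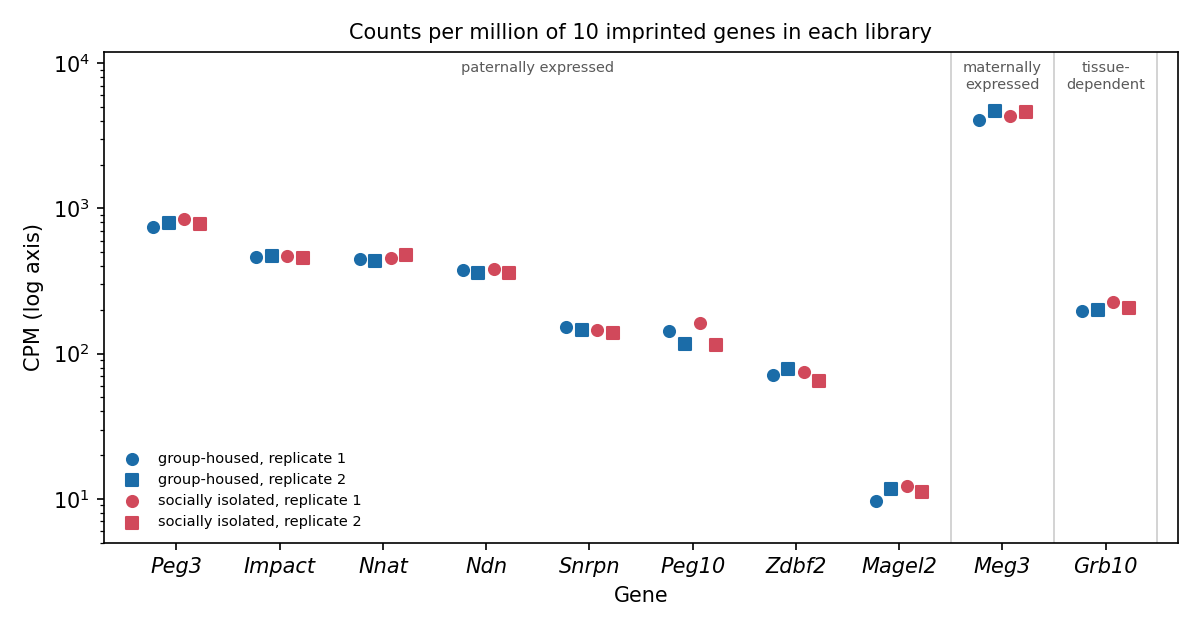
CPM (log axis) of the 10 genes in each of the 4 libraries. Blue marks the group-housed and red the isolated libraries, and circles and squares mark replicates 1 and 2. Levels reach from 9.70 CPM for Magel2 to 4652 CPM for Meg3, and the colours lie close together within every gene.

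Sequence in front of the genes is shown for 3 starts, and its relation to the levels below was not tested. They are the stretch between the divergent starts of Peg3 and its neighbour Usp29, the stretch before Meg3 (the member with the most counts) and the stretch before Magel2 (the member with the fewest). The letters are from RefSeq's promoter table on GRCm38.p6, each lies before the annotated start of the gene named with 0 annotated exons over it, and capitals mark CG dinucleotides, the sites of DNA methylation.
Peg3, chr7:6730432-6730577, minus strand: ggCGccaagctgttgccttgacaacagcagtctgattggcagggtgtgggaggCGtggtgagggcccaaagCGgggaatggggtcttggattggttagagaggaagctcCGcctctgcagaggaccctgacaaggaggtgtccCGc
Meg3, chr12:109540746-109540995, plus strand: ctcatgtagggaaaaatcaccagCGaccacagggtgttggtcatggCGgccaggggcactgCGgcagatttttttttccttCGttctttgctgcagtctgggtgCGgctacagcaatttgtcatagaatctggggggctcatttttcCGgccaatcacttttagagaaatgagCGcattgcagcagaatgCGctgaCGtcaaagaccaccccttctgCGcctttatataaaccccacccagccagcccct
Magel2, chr7:62376729-62376978, plus strand: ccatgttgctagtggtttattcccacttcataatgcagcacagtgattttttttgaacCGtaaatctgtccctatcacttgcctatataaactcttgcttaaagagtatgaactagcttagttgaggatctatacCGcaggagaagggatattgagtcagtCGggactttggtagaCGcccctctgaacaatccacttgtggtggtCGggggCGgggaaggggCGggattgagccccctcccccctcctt

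The Peg3 stretch held 5 CG in 146 bases, that of Meg3 10 in 250 and that of Magel2 7 in 250. RefSeq's table gave start windows (250 bases before to 50 after a start) for 8 of the 10 members, 14 windows in all, and 9 of the 14 held more CG than the median of 7 over 32817 windows. On both strands, TGCCGC, the letters that the imprint-keeping factor Zfp57 reads when methylated, stood in 5 of the 14 windows and in 11.6% of all windows. The cyclic AMP response element TGACGTCA stood in 3 of the 14, those of Meg3, Peg3 and Zdbf2, and in 1.79% of all. CCATNTT, the core of the YY1 motif, stood in 3 of the 14 and in 16.1% of all. The Meg3 stretch printed above holds 1 TGACGTCA and 1 TGCCGC. That of Peg3 holds 0 of each, so the TGACGTCA of its window lies outside the printed letters. Windows of 1 gene are not independent, TGCCGC and TGACGTCA each contain a CG, and a match is a description of letters only.

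Of the paternally expressed genes, Peg3 and its neighbours are described first. Peg3 (ENSMUSG00000002265), a zinc finger protein gene known from studies of maternal care, lies on the minus strand of chromosome 7 (6703892 to 6730431, GRCm38). It measured 748 and 789 CPM in group-housed replicates 1 and 2 and 844 and 774 CPM in isolated replicates 1 and 2. Isolated replicate 1 was the highest, and the groups overlapped. Their means were 769 ± 29.1 and 809 ± 49.7 CPM (SD, n = 2 each), with a log2 fold change of 0.073 (SE 0.082) and a 95% interval of -0.11 to 0.26. Omission of isolated replicate 1 gave 0.0080, and of isolated replicate 2 0.13. Usp29, a paternally expressed ubiquitin protease gene read in the opposite direction, measured 140 and 140 CPM in the group-housed and 157 and 131 CPM in the isolated replicates. Per kilobase of exon, Peg3 stood 7.26 to 8.03 times above Usp29 in the 4 libraries, and their starts lie on the 2 sides of the stretch of 146 bases printed above. With the longest annotated transcript as the length, the mean ratio was 4.82. Zim1, the maternally expressed zinc finger gene beside them, measured 25.2 and 27.7 CPM in the group-housed and 31.0 and 27.3 CPM in the isolated replicates.

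The Prader-Willi and Angelman cluster of chromosome 7 held 3 members. Ndn (ENSMUSG00000033585, plus strand, 62346569 to 62350262) encodes necdin, a growth-restraining MAGE family protein of postmitotic neurons. It measured 376 and 361 CPM in the group-housed and 380 and 359 CPM in the isolated replicates, with a log2 fold change of 0.0052 (SE 0.069). Both group-housed values lay between the isolated ones, and the 95% interval of the fold ran from 0.899 to 1.12. Magel2 (ENSMUSG00000056972, plus strand, 62377010 to 62381640), another MAGE family gene, which acts with ubiquitin ligases in endosomal sorting, had the fewest counts of the 10 members, from 199 to 324 per library. Its levels were 9.70 and 11.7 CPM in the group-housed and 12.3 and 11.1 CPM in the isolated replicates, and the interval of its log2 fold change ran from -0.19 to 0.44. These neighbours thus differed widely in level, with Ndn 38.5 to 48.5 times above Magel2 per kilobase in the 4 libraries.

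Snrpn (ENSMUSG00000102252, minus strand, 59982495 to 60140219) encodes SmN, the spliceosomal protein that takes the place of SmB in neurons. It measured 153 and 145 CPM in the group-housed and 145 and 139 CPM in the isolated replicates. The isolated libraries were the lower ones, by a log2 fold change of -0.070 (SE 0.063; 95% interval -0.21 to 0.073), and edgeR gave an adjusted p = 0.9998. The counts of this gene are the least certain of the 10. Only 65.9% of its 2159 exon bases are free of exons of other genes, and 26.5% of its transcript stretches of 50 bases occur exactly in transcripts of 5 other genes. Snurf, which is encoded on the same transcripts, was listed at 0 in all 4 libraries, and 0 of its 216 annotated exon bases are its own. Gm38393, a gene model that shares exon sequence with Snrpn, had 413 to 592 counts.

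Others of that cluster also gave no call in edgeR. Snhg14, the long host RNA of small nucleolar RNAs whose far end runs antisense to Ube3a, measured 218 and 271 CPM in the group-housed and 236 and 279 CPM in the isolated replicates. Ube3a, the maternally expressed ubiquitin ligase gene of Angelman syndrome, measured 174 and 179 CPM in the group-housed and 178 and 166 CPM in the isolated replicates. Exons of the pair overlap on opposite strands (72.7% of Ube3a exon bases are its own), and no source used here states whether the counting used strand, so their reads cannot be fully told apart. Mkrn3, whose protein restrains the onset of puberty, stood at 1.64 to 2.18 CPM, and Peg12, an inhibitor of GSK3, at 0.491 to 1.245 CPM. Atp10a, a phospholipid flippase gene, measured 13.5 to 17.4 CPM.

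Nnat (ENSMUSG00000067786, chromosome 2, plus strand, 157560078 to 157562522) encodes neuronatin, a small endoplasmic reticulum proteolipid. It measured 449 and 433 CPM in the group-housed and 456 and 474 CPM in the isolated replicates. Each isolated library exceeded each group-housed one, by a log2 fold change of 0.075 (SE 0.070; 95% interval -0.083 to 0.23), which edgeR did not call (adjusted p = 0.9998). Blcap, the gene in whose span Nnat lies, measured 179 and 167 CPM in the group-housed and 181 and 170 CPM in the isolated replicates. Nnat stood 4.17 to 4.64 times above Blcap per kilobase of exon, and 3.78 times on average by the longest transcripts.

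Impact (ENSMUSG00000024423, chromosome 18, plus strand), an inhibitor of the translational stress kinase GCN2, was the steadiest of the members. It measured 459 and 466 CPM in the group-housed and 469 and 452 CPM in the isolated replicates, and no library strayed more than 0.03 from its mean on the log2 scale. Its fold change had a 95% interval of 0.893 to 1.11.

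Peg10 (ENSMUSG00000092035, chromosome 6, plus strand, 4747306 to 4760517), a gene derived from a retrotransposon whose protein forms virus-like particles, was the most variable. It measured 143 and 117 CPM in the group-housed and 164 and 115 CPM in the isolated replicates. The libraries of each group thus lay further apart than the group means of 130 ± 18.3 and 139 ± 34.6 CPM (SD, n = 2 each). The log2 fold change of 0.10 (SE 0.15) became -0.18 without isolated replicate 1 and 0.33 without isolated replicate 2. Omission of group-housed replicate 1 gave 0.25, and of replicate 2 -0.048. Sgce, the sarcoglycan gene that starts beside Peg10 on the other strand and is mutated in myoclonus dystonia, measured 35.4 and 31.9 CPM in the group-housed and 30.9 and 31.9 CPM in the isolated replicates. Per kilobase, Peg10 stood 5.73 to 8.43 times above Sgce, with the highest ratio in isolated replicate 1, and 2.74 times on average by the longest transcripts. Of the flanking genes, Ppp1r9a, which encodes the actin-binding neurabin, measured 181 to 207 CPM, Asb4 2.02 to 2.63 CPM and Calcr, the calcitonin receptor gene, 0.0778 to 0.227 CPM, too low to be tested.

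Zdbf2 (ENSMUSG00000027520, chromosome 1, plus strand, 63273265 to 63314576), a zinc finger gene with a role in hypothalamic control of growth, measured 71.1 and 77.8 CPM in the group-housed and 74.8 and 64.5 CPM in the isolated replicates. Isolated replicate 2 was the lowest, and the groups overlapped. The log2 fold change was -0.098 (SE 0.085), and it was 0.0059 without isolated replicate 2. Gpr1, a chemerin receptor gene beside Zdbf2, stood at 1.10 to 1.56 CPM. Adam23, a synaptic adhesion gene of the same cluster, measured 111 to 120 CPM.

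Meg3 (ENSMUSG00000021268, chromosome 12, plus strand, 109541001 to 109571726), a nuclear long noncoding RNA, is the maternally expressed member. It measured 4051 and 4652 CPM in the group-housed and 4348 and 4594 CPM in the isolated replicates. The libraries with replicate number 2 were the higher ones in both groups, and the groups overlapped. Group means were 4351 ± 425 and 4471 ± 173 CPM (SD, n = 2 each), with a log2 fold change of 0.039 (SE 0.11; 95% interval -0.22 to 0.30). It took up to 0.468% of all counts. By CPM, Meg3 ranked 2nd of the 17528 tested genes. Of its exon bases 91.7% are free of exons of other genes, and 10.4% of its stretches of 50 bases occur in transcripts of 8 other genes.

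The other maternal noncoding RNAs of that Dlk1-Dio3 cluster were present at lower levels. Rian, which hosts small nucleolar RNAs, measured 673 and 674 CPM in the group-housed and 675 and 653 CPM in the isolated replicates. Mirg, which hosts microRNAs, measured 33.3 and 35.8 CPM in the group-housed and 38.7 and 36.7 CPM in the isolated replicates. Mirg was higher in each isolated library than in each group-housed one, with a log2 fold change of 0.12 (SE 0.078) that edgeR did not call (adjusted p = 0.988). Per kilobase Meg3 stood 6.07 to 7.09 times above Rian, and Rian 6.97 to 8.07 times above Mirg. By the longest transcripts the mean ratio of Meg3 to Rian was 3.67, and that of Rian to Mirg 8.74. The protein-coding genes of the paternal copy were low. Dlk1, a Notch ligand relative, measured 9.26 and 9.92 CPM in the group-housed and 13.1 and 9.18 CPM in the isolated replicates, Rtl1 measured 0.415 to 0.973 CPM, and Dio3, the thyroid hormone inactivating deiodinase gene, was too low to be tested at 0.190 to 0.378 CPM. The limit set by 3 counts, which did not decide what was tested, was 0.113 to 0.146 CPM.

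Grb10 (ENSMUSG00000020176, chromosome 11, minus strand, 11930508 to 12038683), an adaptor that damps insulin and growth factor receptor signals, is the member whose parental expression differs between tissues. It measured 195 and 199 CPM in the group-housed and 226 and 208 CPM in the isolated replicates. The 2 isolated values exceeded the 2 group-housed ones, and the means were 197 ± 2.51 and 217 ± 13.3 CPM (SD, n = 2 each). The log2 fold change of 0.14 (SE 0.068; 95% interval -0.015 to 0.30) was the largest among the members. It missed the threshold (edgeR unadjusted p = 0.071, adjusted p = 0.979) and ran from 0.076 to 0.20 when 1 library was left out. Transcripts from the maternal and paternal starts of the gene are counted together.

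**Figure D2:**
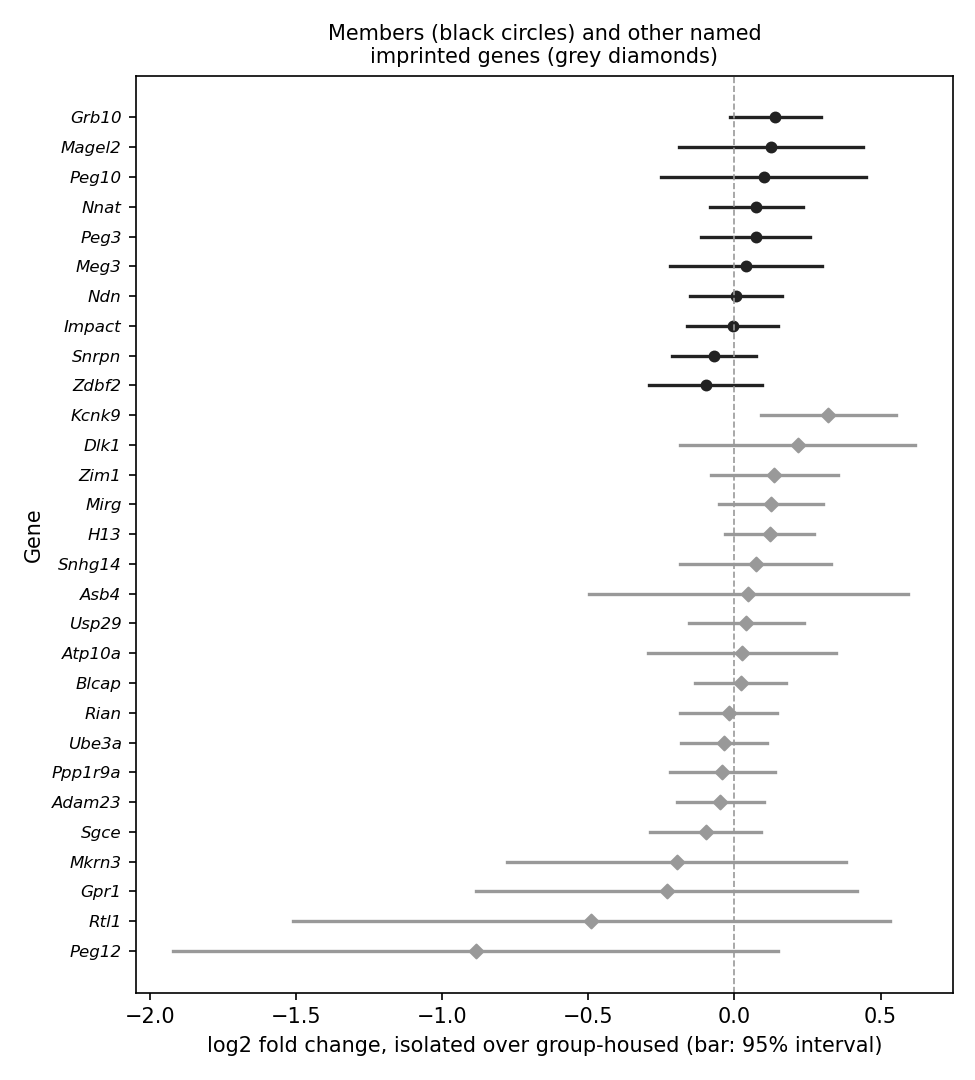
Log2 fold change (isolated over group-housed) with its 95% interval for the 10 members (black circles) and 19 other named imprinted genes (grey diamonds). The intervals of all 10 members include 0 and reach no further than 0.45 from it, and the wide ones at the bottom belong to genes of few counts such as Peg12.

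How large a change the data leave room for differs between the members. The intervals of the fold ran from 0.893 to 1.11 for Impact and from 0.899 to 1.12 for Ndn, whereas they reached 1.36 for Magel2 and 1.37 for Peg10. The intervals rest on 2 libraries a group and on each gene's own spread, moderated by that of all genes (residual degrees of freedom 2, prior 6.55).

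**Figure D3:**
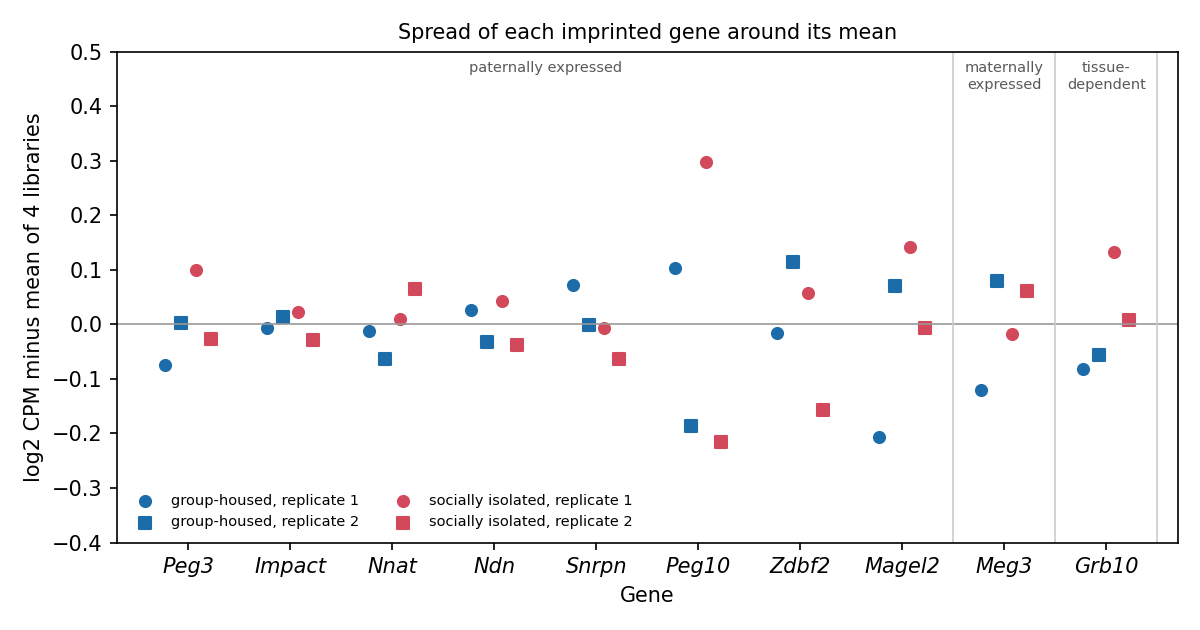
Log2 CPM of each member in each library minus its mean over the 4 libraries, with colours and symbols for group and replicate. Peg10 spans -0.21 to 0.30, whereas Impact stays within 0.03, and the red points do not lie apart from the blue ones as a set.

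Across the members, 7 of 10 stayed within 0.15 of their mean on the log2 scale in all 4 libraries, and the 3 that did not were Peg10, Magel2 and Zdbf2. Isolated replicate 1 was the highest library for 6 of 10 members (Peg3, Ndn, Magel2, Peg10, Grb10 and Impact), beside 25.3% of all tested genes. Isolated replicate 2 was the lowest for 5 of 10 (Peg10, Zdbf2, Snrpn, Ndn and Impact), beside 4807 of 17528 tested genes. Marker lists also set these libraries apart. The 8 oligodendrocyte markers summed to 10331 CPM in isolated replicate 1 and to between 12148 and 13603 CPM in the others, with 0 of 8 at 0 counts. Thalamus markers (10 genes) summed to 995 CPM in isolated replicate 2 and to between 1160 and 1368 CPM in the others, and the 7 neuron markers to 3413 CPM there and to between 3628 and 3788 CPM in the others. The 6 ependyma markers, all highest in isolated replicate 2, summed to 127 CPM there and to between 59.0 and 64.6 CPM in the others. The part of these differences in the members' values was not tested.

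Levels of the members were compared with each other per kilobase of merged exon. Nnat and Meg3 stood highest, at 248 (237 to 259 in the 4 libraries) and 244 (224 to 257) CPM per kilobase, and these ranges overlapped. Ndn followed at 99.8 (97.2 to 103), then Impact at 90.0 (88.2 to 91.4), Snrpn at 67.4 (64.4 to 70.8) and Peg3 at 59.2 (56.1 to 63.3), with no overlap between neighbours. Grb10 at 22.8 (21.5 to 24.9) and Peg10 at 20.2 (17.2 to 24.5) overlapped. Zdbf2 at 5.69 (5.09 to 6.15) and Magel2 at 2.43 (2.09 to 2.66) came last. The order depends in part on the length used: by the longest transcript, Impact (123) passed Ndn, which stayed at 99.8, and Peg3 (90.7) passed Snrpn (70.1), while Grb10 came to 40.9. Counting only exon bases that no other gene shares, Snrpn came to 102 CPM per kilobase. Of the 10 members, 6 were in the top 10% of tested genes by this measure, and Magel2 ranked 11060th.

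**Figure D4:**
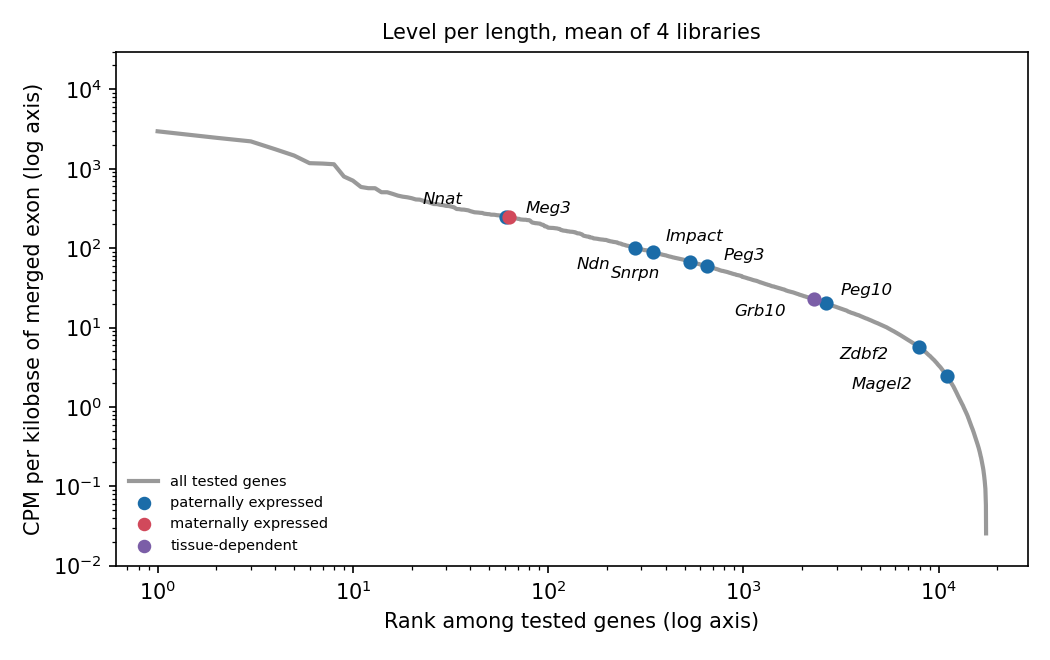
CPM per kilobase of merged exon (mean of 4 libraries, log axis) against rank among tested genes (log axis), with the members marked on the grey curve of all genes. Nnat and Meg3 rank 61st and 63rd, and the lowest members, Zdbf2 and Magel2, rank 7927th and 11060th of 17508 genes.

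A list of 49 other known imprinted genes was examined in the same fit, 24 of them classed as paternally and 25 as maternally expressed. The classes are from general knowledge of mouse imprinting, and which copy was used in this tissue was not measured. Of the 49 genes, 41 had enough counts to be tested, and 0 passed over all genes in edgeR, DESeq2 or limma-voom. The 21 tested paternally expressed genes had a median log2 fold change of -0.0016 (10 positive, 11 negative), and the 20 maternally expressed ones 0.019 (12 positive, 8 negative), beside 0.0033 over all tested genes. The 2 isolated libraries were the highest of the 4 for 5 of the 41, beside 17.4% of all tested genes, and the lowest for 5, beside 16.3%. At an unadjusted p below 0.05, 1 of the 41 passed in edgeR, beside 5.09% of all tested genes. This was Kcnk9, the maternally expressed potassium channel gene TASK3, at 14.2 and 14.9 CPM in the group-housed and 18.9 and 17.6 CPM in the isolated replicates (log2 fold change 0.32, SE 0.10, edgeR adjusted p = 0.780). The next smallest p-values were those of Peg12 (log2 fold change -0.88) and H13, a signal peptide peptidase gene (0.12), each with an edgeR adjusted p = 0.979. The Peg12 value rested on group-housed replicate 2, at 1.245 CPM against 0.491 to 0.536 CPM in the others, and was -0.13 without that library and -1.33 without group-housed replicate 1. The H13 value ran from 0.050 without group-housed replicate 2 to 0.18 without group-housed replicate 1.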

How the data were processed

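RNA of the lateral habenula was measured in 4 libraries, made with a stranded poly(A) kit per the labels' protocols. The authors deposited raw read counts per Ensembl gene, which served every test. A scaled signal per library was not used. Listed in the submitters' processing notes, without roles, are GRCm38 as the build and HTSeq, TopHat2 2.1.1, edgeR and CASAVA as tools. Their annotation release and strand setting: not given in the sources used here. Symbols, coordinates and exon lengths were taken from GENCODE M21 (GRCm38), and promoter letters from RefSeq (GRCm38.p6). Of 53465 rows, 105 had no entry in GENCODE M21 (0.0253 to 0.0281% of counts).

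The comparison used edgeR 4.0.16 under R 4.3.3 (TMM, filterByExpr, glmQLFit and glmQLFTest, 2-sided, threshold 0.05 after Benjamini-Hochberg adjustment over 17528 genes), with no covariate. TMM scaling gave the CPM values. An SE is the log2 fold change divided by the root of the F statistic, and 95% intervals use the test's degrees of freedom. Replicates differed beyond counting noise in both groups (chi-square per degree of freedom 5.13 and 7.57). Limits from counts cover counting error only. Alternatives were DESeq2 1.42.0, limma-voom (limma 3.58.1), RLE size factors, library totals, 2 other filters, a replicate block and leaving out each library. The members and lists were chosen with earlier results of these data known. Named genes are the members, the listed genes of their clusters, any listed gene that passed and the 3 other imprinted genes of smallest p.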

Additional observations from a re-analysis of the deposited data

How the results depend on the processing

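Of the 10 members and the 49 other imprinted genes, 0 passed in any of the 11 alternatives, where the smallest adjusted p over both lists was 0.265 (without isolated replicate 2). Among the alternatives that kept all 4 libraries, 1 of the 10 members had an unadjusted edgeR p below 0.05 with library totals alone. With a replicate block 1 member did so, against 0 in the main fit. Such counts are not given for the fits that left out 1 library, since 1 group then held 1 library. For 29 named genes, 289 of 314 alternative values kept their sign and 25 did not. With library totals alone Impact gave 0.014 and Rian 4.1e-05. The other sign changes came from leaving out 1 library, with log2 fold changes from -0.037 to 0.046 for Ndn, -0.00050 to 0.27 for Magel2, -0.057 to 0.13 for Meg3, -0.18 to 0.33 for Peg10, -0.033 to 0.020 for Impact, -0.21 to 0.0059 for Zdbf2, -0.098 to 0.17 for Usp29, -0.067 to 0.45 for Dlk1, -0.87 to 0.11 for Rtl1, -0.073 to 0.23 for Snhg14, -0.11 to 0.0055 for Adam23, -0.046 to 0.0051 for Rian, -0.087 to 0.013 for Ube3a, -0.14 to 0.22 for Atp10a, -0.14 to 0.053 for Ppp1r9a, -0.15 to 0.24 for Asb4 and -0.039 to 0.074 for Blcap. Of the members that kept their sign, Peg3 ran from 0.0080 to 0.13, Snrpn from -0.12 to -0.033, Nnat from 0.040 to 0.10 and Grb10 from 0.076 to 0.20. The members' median was -0.013 without isolated replicate 1 and at most 0.047 in the other omissions, and 5 to 8 of the 10 were positive (8 with library totals alone). Over all genes, 2 were called higher and 0 lower, against 40 and 9 with DESeq2, 15 and 0 with no filter on low counts, and 0 to 151 higher and 0 to 70 lower when 1 library was left out. The most calls came without isolated replicate 1. A replicate block gave 52 higher and 12 lower, with 0 members among them. The replicate numbers are not stated to pair the libraries (correlation of deviations 0.141). The level per kilobase by unshared exon length was 102 for Snrpn, 266 for Meg3 and 260 for Nnat. By the longest transcript, chosen after seeing the data, it was 90.7 for Peg3, 70.1 for Snrpn, 303 for Meg3, 40.9 for Grb10, 313 for Nnat and 123 for Impact. The causes were not tested. Of the tested genes named, Rtl1 and Peg12 had the fewest counts, at 10 to 25 and 11 to 32 per library.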

Other observations

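Some imprinted genes outside the 10 were also abundant, and were picked out after their values were seen. Nap1l5, a paternally expressed nucleosome assembly protein gene without introns, measured 602 and 590 CPM in the group-housed and 571 and 534 CPM in the isolated replicates. At 311 CPM per kilobase it ranked 34th among tested genes, above Nnat. Its isolated values were the lower ones (log2 fold change -0.11, SE 0.074, edgeR adjusted p = 0.995). Gnas, which encodes the stimulatory G protein subunit and other products of a complex locus, measured 1153 and 1103 CPM in the group-housed and 1085 and 1042 CPM in the isolated replicates (log2 fold change -0.085, SE 0.081, edgeR adjusted p = 0.9998). Peg13, a noncoding RNA within Trappc9, measured 374 and 347 CPM in the group-housed and 387 and 326 CPM in the isolated replicates, and its log2 fold change was -0.017. Among the genes too low to be tested, H19 stood at 0.0378 to 0.152 CPM and Phlda2 had at most 0.0381 CPM in a library.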
